A study of Caenorhabditis elegans with 2 samples.

Results

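Of the 952 optimal binding peaks of the C. elegans zinc finger protein ZTF-22, 250 lay on the X chromosome. They were chosen by chromosome alone from the optimal list, which was itself selected on the pooled signal value, so both the number of X peaks and their signal are described here and not tested. The data were ChIP-seq region lists from whole young adults of strain OP676, collected at 68 hours after synchronisation by bleaching and starvation as L1 larvae, with males and females pooled. The strain carries the unc-119(tm4063) allele and the transgene wgIs676, in which ztf-22::TY1::EGFP::3xFLAG is joined to a rescuing unc-119(+), and the protein with its C-terminal tags was precipitated with an anti-GFP antibody. There was 1 group with 2 biological replicates of this 1 line and no second condition. The labels name no change at the ztf-22 gene itself, so the tagged protein may have been made beside the untagged one, and signal from all tissues is mixed.

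In C. elegans, hermaphrodites have a pair of X chromosomes and males a single one. A dosage compensation complex binds both hermaphrodite X chromosomes and lowers their transcription, and it is loaded at recruitment sites that hold a motif known as MEX (motif enriched on X). The X chromosome is also known to carry most of the vitellogenin yolk genes, the intestinal GATA factor gene elt-2 and many tRNA genes, and to be poor in genes expressed in the germ line. ZTF-22 is a zinc finger protein, a class that includes many DNA-binding factors.

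The sequences below show the kinds of site that the results turn on. Each is 100 bases of the plus strand centred on a summit, read from the RefSeq genome WBcel235 (ce11), and overlaps no annotated UTR. Peaks are named, here and below, by the protein-coding gene whose start is nearest, which need not be their target. Capitals mark copies, on either strand, of the motifs GCGCAGGG (the core of MEX), CTGCGTCTC, GAGAGAGA and GGTTCGA (the B box inside tRNA genes). The first 5 are strong X peaks with a MEX core.
nspc-17, intergenic, chrX:14525874-14525973: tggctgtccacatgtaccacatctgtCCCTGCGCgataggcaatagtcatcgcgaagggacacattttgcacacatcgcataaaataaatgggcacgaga
W02H3.3, intergenic, chrX:11094170-11094269: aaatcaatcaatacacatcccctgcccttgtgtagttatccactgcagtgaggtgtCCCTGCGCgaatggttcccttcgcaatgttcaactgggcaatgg
cest-16, intron of mom-1, chrX:6296571-6296670: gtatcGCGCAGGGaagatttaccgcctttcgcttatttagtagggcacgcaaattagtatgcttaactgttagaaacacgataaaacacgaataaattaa
xol-1, intergenic, chrX:8036392-8036491: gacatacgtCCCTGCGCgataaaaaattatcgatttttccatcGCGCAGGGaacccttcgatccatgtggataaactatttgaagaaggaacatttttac
gtr-1, intergenic, chrX:806646-806745: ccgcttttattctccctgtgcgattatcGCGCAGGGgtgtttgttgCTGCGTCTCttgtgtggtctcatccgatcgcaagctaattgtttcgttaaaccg
The next 3 are the strongest X peak, which holds a GAGA repeat, the strongest X peak in a promoter window, which holds none of these motifs, and a promoter peak with CTGCGTCTC.
bcat-1, intergenic, chrX:12872410-12872509: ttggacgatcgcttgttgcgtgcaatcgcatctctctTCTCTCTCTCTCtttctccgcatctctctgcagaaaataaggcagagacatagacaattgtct
serp-1.1, promoter window, chrX:15841229-15841328: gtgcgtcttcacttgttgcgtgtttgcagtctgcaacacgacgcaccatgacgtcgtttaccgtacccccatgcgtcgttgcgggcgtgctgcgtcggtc
epn-1, promoter window, chrX:14818929-14819028: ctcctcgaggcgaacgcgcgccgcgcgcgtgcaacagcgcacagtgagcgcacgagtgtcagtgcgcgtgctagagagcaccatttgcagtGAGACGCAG
The last is a peak whose summit lies inside the tRNA gene F41D9.t3, in an intron of sulp-3.
tRNA F41D9.t3, intron of sulp-3, chrX:8404474-8404573: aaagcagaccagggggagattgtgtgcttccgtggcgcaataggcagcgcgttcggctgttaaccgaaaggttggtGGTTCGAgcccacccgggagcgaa

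X held 26.3% of the optimal peaks (exact Clopper-Pearson 95% interval 23.5 to 29.2%), 17.7% of the sequence of the 6 nuclear chromosomes and 13.7% of their protein-coding genes. All intervals of shares below are of this kind and cover counting error only, and the read depth of the libraries is unknown. In all, 3.17% of the 30000 pooled candidate regions were in the optimal list. The density was 14.1 optimal peaks per Mb on X, against 7.55 per Mb on chromosome IV, the lowest of the autosomes, and 9.88 per Mb on chromosome II, the highest. The 952 strongest regions of replicate 1 included 214 on X, or 12.1 per Mb, and those of replicate 2 included 243, or 13.7 per Mb. In each replicate X was the densest chromosome, with chromosome III the next in replicate 1 at 10.5 per Mb and chromosome II the next in replicate 2 at 9.95 per Mb. X also had the densest candidate regions that overlap no optimal peak, at 327 per Mb, while the autosomes had between 237 and 302.

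**Figure D1:**
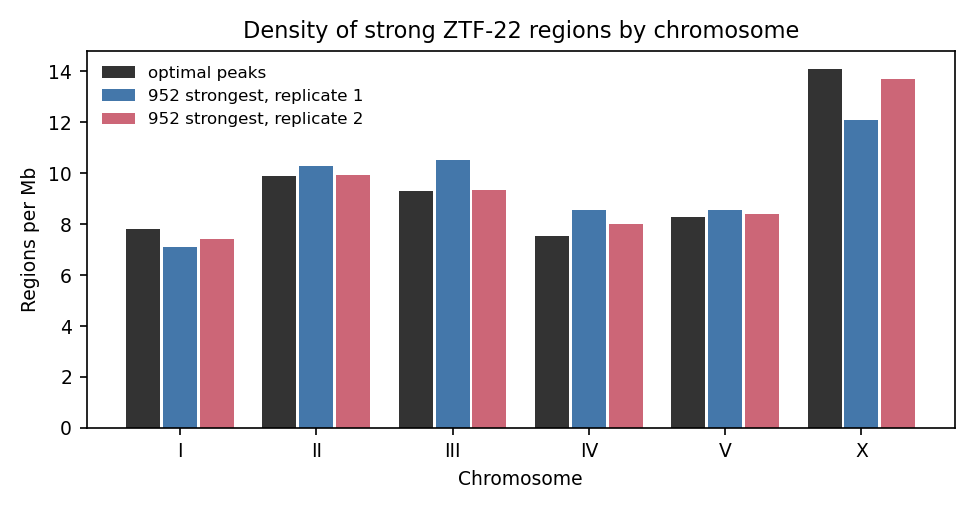
Regions per Mb (vertical axis) on each chromosome, for the optimal peaks and for the 952 strongest regions of each replicate. The 3 bars of X, at 14.1, 12.1 and 13.7 per Mb, are above all bars of the autosomes.

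The share on X depended on how far down the ranking it was counted. X held 19 of the 100 strongest pooled regions (11.8 to 28.1%), 48 of the 200 strongest (24.0%, 18.3 to 30.5%) and 131 of the 476 strongest (27.5%, 23.6 to 31.8%). These intervals overlap, so the rise is within counting error. The share then fell to 22.8% (21.7 to 24.0%) of the strongest 5000 and 20.3% (19.8 to 20.7%) of all 30000. The last interval does not overlap that of the 476 strongest. In replicate 1 the share was highest near the top, at 28.0% (21.9 to 34.8%) of the 200 strongest. In replicate 2 it was 24.0% (18.3 to 30.5%) there and 25.5% (23.6 to 27.5%) of the 2000 strongest, and these intervals overlap. Over all 30000 regions the share was 19.4% (18.9 to 19.8%) in replicate 1 and 20.6% (20.2 to 21.1%) in replicate 2. The former interval lies below that of the 200 strongest of replicate 1, and the latter below that of the 2000 strongest of replicate 2.

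The pooled signal value of the X peaks, in the units of the authors' peak caller, ran from 110 to 363 with a median of 139. The median of the autosomal peaks was 137 and their highest value was 555. The deposited -log10 q of the X peaks lay between 2.09 and 2.86. The X members nearest to the edge of the list were amt-4, for an ammonium transporter, at a signal of 110.3, B0416.5 at 110.4 and F52G3.1 at 110.5. The X regions just outside it were at mai-1 with 109.7, T26C11.2 with 109.5 and nmy-1, for a non-muscle myosin, with 109.4.

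Of the 250 X peaks, 229 had a summit within 100 bp of some candidate summit of replicate 1 and 248 of replicate 2. Among the 952 strongest regions of each replicate, 137 X peaks (54.8%) were matched in replicate 1 and 215 (86.0%) in replicate 2. In both together, 112 were matched, which is 44.8% (38.5 to 51.2%) against 46.4% (42.7 to 50.2%) of the 702 autosomal peaks. The median rank of the matched X peaks was 661 in replicate 1 and 498 in replicate 2. As a description, Spearman's rho between the ranks in the replicates was 0.26 over the 227 X peaks found in each, against 0.36 over 628 autosomal peaks. The autosomal peaks were likewise matched more often in replicate 2 (81.3%) than in replicate 1 (59.0%).

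**Figure D2:**
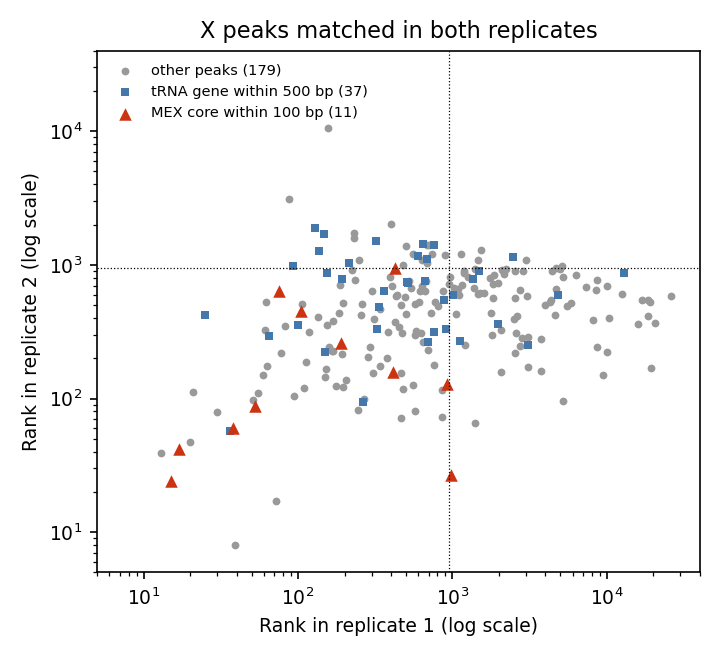
Rank of each X peak matched in both replicates among the regions of replicate 1 (horizontal, log scale) and replicate 2 (vertical, log scale), with dotted lines at rank 952 and marks for a MEX core or a tRNA gene (1 peak, at xol-1, has both and is drawn as a MEX peak). Grey points spread to ranks past 10000 in replicate 1, while the 11 MEX peaks stay within rank 975 in it.

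The 5 X peaks with the largest difference in rank were all far weaker in replicate 1. They lay at hrg-1, which encodes a haem transporter, at sdpn-1, which encodes the membrane-trafficking protein syndapin, and at Y102A11A.9, F43E12.1 and F39D8.3. The peak at hrg-1, 178 bp upstream of its start, ranked 26163 in replicate 1 and 588 in replicate 2. The others ranked between 18541 and 20386 in replicate 1 and between 169 and 526 in replicate 2.

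The strongest X peak lay 5021 bp upstream of bcat-1, the gene of a branched-chain amino acid aminotransferase, with a pooled signal of 363. It ranked 11 in the pooled list, 39 in replicate 1 and 8 in replicate 2. The peak at nspc-17 had a signal of 318 and ranked 15 and 24 in replicates 1 and 2. The peak upstream of K02D3.1 had a signal of 311 and ranked 13 and 39. These are the 3 strongest intergenic peaks of X, and each ranked within the first 39 in both replicates.

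The strongest promoter peak lay 294 bp upstream of serp-1.1, whose product belongs to a family of stress-associated proteins of the endoplasmic reticulum (ER), with a signal of 311 and ranks of 72 and 17. A peak 287 bp upstream of puf-9, for a Pumilio-type RNA-binding protein, had a signal of 277 and ranks of 20 and 47. A peak 42 bp upstream of hsp-3, for an ER chaperone of the HSP70 family, had a signal of 237 and ranks of 51 and 98. The promoter peak of epn-1, for the endocytic adaptor epsin, had a signal of 210 and ranks of 109 and 120. These 4 were the promoter peaks among the 20 strongest on X, and each was among the strongest regions of both replicates.

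The other 16 of the 20 strongest comprised 11 intergenic peaks, 3 in introns and 2 in non-coding genes. Among the 20 strongest autosomal peaks, 3 were intergenic, 9 were in introns, 5 were in promoter windows and 3 were in non-coding genes. These sets are not of like depth, since the 20 X peaks reach pooled rank 107 and are a larger share of their list. With each list cut by signal into 4 near-equal parts, the strongest part was 42.9% intergenic on X (27 peaks) and 30.7% on the autosomes (54 peaks). Introns held 15.9% and 22.2% of it, and promoter windows 30.2% and 38.1%. The weaker parts did not repeat the intergenic difference. In order of falling signal they were 30.6, 29.0 and 34.9% intergenic on X, against 37.1, 27.4 and 33.5% on the autosomes. These shares of parts were not tested. Of the 20 strongest X peaks, those in introns had signals of 271, 265 and 204. The first lay in him-4 (hemicentin, an extracellular matrix protein) beside the tRNA gene F15G9.t1. The others lay in mom-1 (a Porcupine-family protein of Wnt signalling) and in F43C9.1. The peaks in non-coding genes lay in R03E9.10, just past the end of mdl-1 (a MAD-like transcription factor), with a signal of 246, and 729 bp upstream of spat-3 (a Polycomb-related RING protein) with 210.

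Over all 250 X peaks, 80 summits (32.0%, 26.3 to 38.2%) lay in a promoter window, which reaches from 500 bp before to 200 bp after the start of a protein-coding transcript. Another 86 (34.4%, 28.5 to 40.6%) were intergenic, 47 (18.8%) were in introns, 23 (9.20%) in non-coding genes, 12 (4.8%) in coding exons and 2 in 3' UTRs. The windows cover 13.4% of X, intergenic sequence 34.6%, introns 27.8%, non-coding genes 3.21% and coding exons 17.3%. Promoter windows and non-coding genes thus held larger shares of X peaks than of X sequence, coding exons and introns held smaller shares, and intergenic sequence held about the same share. For introns, replicate 1 alone gave 22.9% (17.4 to 29.1%) of its strongest X regions, an interval that takes in the share of sequence. Replicate 2 alone gave 16.9% (12.4 to 22.2%), which does not.

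The autosomal optimal peaks had overlapping intervals in each class, with 36.9% (33.3 to 40.6%) in promoter windows, 32.2% (28.7 to 35.8%) intergenic, 19.2% in introns and 5.13% in coding exons. Autosomal sequence is 17.0% promoter window, 24.3% intergenic, 30.2% intron and 21.4% coding exon. Intergenic sequence thus held a larger share of autosomal peaks than of autosomal sequence, which was not so on X. This contrast was not seen in replicate 1 alone. Its strongest autosomal regions were 25.1% (22.0 to 28.4%) intergenic, an interval that takes in the share of autosomal sequence. In replicate 2 alone it was 31.9% (28.5 to 35.4%), which does not. The share in non-coding genes was 4.56% (3.14 to 6.37%) on the autosomes against 9.20% (5.92 to 13.5%) on X, and these intervals overlapped slightly. In replicate 1 alone it was 12.1% (8.09 to 17.3%) on X against 4.47% (3.10 to 6.22%), which do not overlap, and in replicate 2 alone 7.41% (4.45 to 11.5%) against 4.23% (2.87 to 5.99%), which do. The 5786 other candidate regions on X were placed differently, with 18.8% (17.8 to 19.9%) in promoter windows and 25.8% (24.7 to 27%) in coding exons, and neither interval overlapped that of the X peaks. In replicate 1 alone, 24.8% (19.1 to 31.1%) of its 214 strongest X regions were in promoter windows, against 18.2% (17.2 to 19.2%) of its other X regions, so there the intervals just overlapped. In replicate 2 alone it was 33.3% (27.4 to 39.6%) of 243 against 19.7% (18.7 to 20.7%). Coding exons held 6.54% of the strongest X regions in replicate 1 and 6.17% in replicate 2, against 25.9% and 25.2% of the others. On the autosomes, coding exons held 13.0% (10.7 to 15.7%) of what was strongest in replicate 1 and 4.09% in replicate 2.

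**Figure D3:**
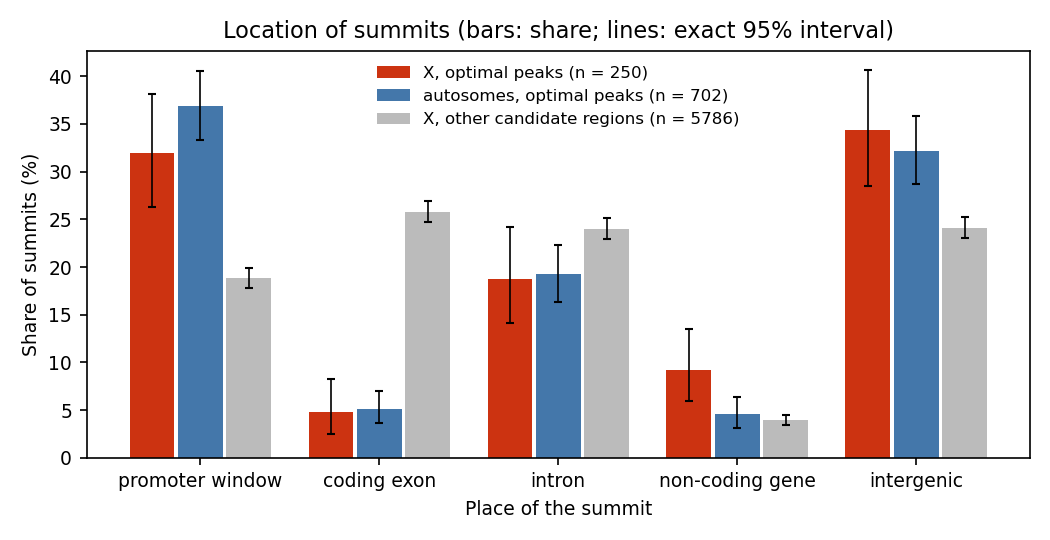
Share of summits (vertical axis, percent) in each class of place, for optimal peaks on X, optimal peaks on the autosomes and the other candidate regions on X, with exact 95% intervals. X peaks and autosomal peaks have overlapping intervals in each class, while the candidates are at 18.8% in promoter windows and 25.8% in coding exons.

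Of the 80 promoter summits on X, 70 (87.5%) were upstream of the start, with a median position of 167 bp upstream. On the autosomes 87.6% of 259 were upstream, with a median of 149 bp. Windows of genes on both strands shared 4 of the 80 X summits (5 served several genes in all), against 41 of 259 on the autosomes. X has 154 protein-coding genes per Mb and the autosomes 188 to 239 per Mb. The 170 X peaks outside promoter windows lay a median of 1969 bp from the nearest start, and 23 of them lay more than 5000 bp away.

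The strongest peaks in coding exons were at ccd-5 with a signal of 168, in an exon of the polyketide synthase gene pks-1 with 166 and in an exon of gcy-31, for a guanylate cyclase, with 164. The 2 summits in 3' UTRs were in T14G8.3 with a signal of 146 and in sid-5, a gene of systemic RNA interference, with 129. No coding exon peak was among the 50 strongest X peaks.

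The X peaks were spread over the whole chromosome, from position 410363 to about 17.6 Mb of 17.7 Mb. Full bins of 1 Mb held between 6 and 27 peaks with a median of 14. The fullest were 6 to 7 Mb with 27 peaks, 13 to 14 Mb with 20, and 7 to 8 Mb and 16 to 17 Mb with 19 each. The emptiest were 0 to 1 Mb with 6, 10 to 11 Mb with 7 and 9 to 10 Mb with 8. The order of the bins differed between replicates. From 6 to 7 Mb replicate 1 had 17 of its strongest regions and replicate 2 had 27, while the fullest bin of replicate 1 was 13 to 14 Mb with 23, followed by 8 to 9 Mb with 19. From 0 to 1 Mb they had 3 and 6. As a description over the 17 full bins, rho between the 2 replicates' counts was 0.70, rho between peaks and protein-coding genes was 0.26, and rho between peaks and other candidates was 0.23.

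The autosomal peaks lay more often in the middle of their chromosomes, and the X peaks did not. The middle 50% of X held 124 of 250 peaks (49.6%, 43.2 to 56.0%), against 63.4% (59.7 to 67.0%) of autosomal peaks in the middle 50% of their own chromosomes. On single autosomes the share was between 57.0% (48.0 to 65.7%) on chromosome III and 70.5% (63.1 to 77.2%) on chromosome V. Only the interval of chromosome V did not overlap that of X. On chromosomes III and IV the interval also took in the share of the other candidates there, 52.1% and 55.5%, and on I, II and V it did not. The other candidates did not show this difference, with 50.9% in the middle of X and 50.1 to 55.5% in the middle of each autosome. In replicate 1 the middle of X held 48.1% and that of the autosomes 61% of the strongest regions, and in replicate 2 it was 50.6% and 64.5%. With X cut into 4 equal lengths, the peaks numbered, from left to right, 55, 81, 43 and 71.

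**Figure D4:**
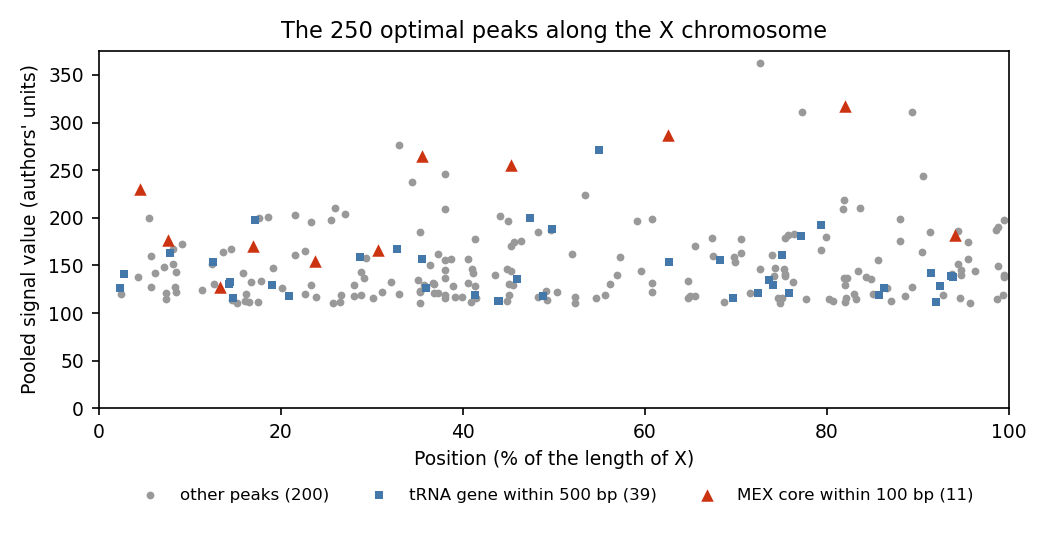
Pooled signal value in the authors' units (vertical) of each of the 250 X peaks against its position as a percentage of the length of X (horizontal), marked where a MEX core lies within 100 bp or a tRNA gene within 500 bp (the peak at xol-1 has both and is drawn as a MEX peak). Peaks cover the whole length, and 5 of the 13 highest points are MEX peaks, at 230 and above.

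Neighbouring X summits were a median of 37934 bp apart, and 56 of 249 neighbouring pairs (22.5%) were under 10 kb apart. On the autosomes the median was 65164 bp, and 148 of 697 pairs (21.2%) were under 10 kb apart. The longest gaps were 416 kb between C30G4.4 and tps-1 (trehalose-6-phosphate synthase), 388 kb between fbxb-58 and Y102A11A.9, and 385 kb between C07D8.6 and spp-14. These gaps were not empty of weaker regions, since they held 117, 89 and 125 other candidates and between 60 and 64 protein-coding gene starts each. At the other extreme, 20 peaks formed 6 clusters of 3 or more summits within 10 kb. The leading cluster had 4 summits over 7555 bp around mdl-1 and R03E9.2, with signals of 119, 209, 155 and 246, and about 4 kb on lay a further cluster of 3 in an intron of abts-4, for an anion transporter. Other clusters were 3 intergenic summits at M163.1 with signals of 209, 219 and 137, 4 at got-2.2 and W05H9.4, 3 in an intron of H18N23.2, and 3 at sma-9, the gene of a Schnurri-type factor of TGF-beta signalling. At H18N23.2 and at sma-9 a pair of the summits came from overlapping regions, so each cluster may hold fewer separate sites than summits.

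In all, 85 of the 2731 protein-coding genes of X (3.11%) had an optimal summit in a promoter window, against 296 of 17242 on the autosomes (1.72%) and 1.91% over the genome. With the strongest regions of replicate 1 it was 57 genes on X (2.09%, 1.58 to 2.70%) against 1.59% (1.41 to 1.79%) on the autosomes, and these intervals overlapped. With those of replicate 2 it was 86 genes (3.15%, 2.53 to 3.87%) against 1.80% (1.61 to 2.01%). The share of X genes with any region of the pooled list in the window was 37.9%, against 26.7% on the autosomes. Of those genes, 8.21% on X and 6.43% on the autosomes had an optimal peak. The members of the 16 gene lists below are X-linked genes only, and each list's count is a description, beside 3.11% of all X genes. The lists were chosen with earlier results of these data known. A count above that share is therefore no evidence of enrichment.

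Among secretory genes of the ER, 4 of 9 X-linked members had a peak. Besides serp-1.1 and hsp-3, these were trap-2, for a subunit of the translocon-associated protein complex, with a signal of 138, and pdi-6, a protein disulphide isomerase gene, with 116. Of the 29 autosomal members 8 had one. In each replicate alone 3 of the 9 X-linked genes had a region among the strongest.

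Of the intestinal list, 4 of 6 X-linked members had a peak. The peak of elt-2, the GATA factor that directs intestinal gene expression, lay 451 bp upstream with a signal of 197, and ranked 63 in replicate 1 and 176 in replicate 2. The peaks of cpr-6 (a cathepsin B-like protease), pept-1 (an intestinal peptide transporter) and asp-4 (an aspartyl protease) had signals of 162, 151 and 116. Of the 24 autosomal members 4 had a peak. In replicate 1 alone 2 of the 6 X-linked genes had a region among the strongest, and in replicate 2 alone 3.

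Of the 5 X-linked vitellogenin genes, vit-5, vit-3 and vit-2 had a peak, with signals of 147, 126 and 119. The 1 autosomal vitellogenin gene also had a peak. None of the 5 had a region among the strongest of replicate 1, and 3 did in replicate 2. Several vitellogenin genes are near-identical copies, and how the authors placed reads that match several copies is not given in the sources used here, so which copy carried the signal is uncertain.

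Single members had peaks in other lists. These were rpl-11.2, a ribosomal protein gene, with a signal of 131 (1 of 2 on X), and sdha-1, for the flavoprotein subunit of succinate dehydrogenase, with 185 (1 of 4 oxidative phosphorylation genes). On the autosomes 10 of 79 and 5 of 58 members of these lists had one. Heat shock genes had hsp-3 only (1 of 3). Of 23 X-linked nuclear hormone receptor genes, nhr-35 had a peak with a signal of 198 and nhr-1 with 149, while 4 of the 23 had a strong region in replicate 1 and 2 in replicate 2.

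No X-linked member had a peak in 9 lists. These were 34 neuropeptide and insulin genes, 28 chemosensory receptor genes, 27 ligand-gated channel genes, 27 collagen genes, 18 homeobox genes of the ceh class, 8 fatty acid genes, 3 glutathione S-transferase genes, 3 ztf genes and 6 genes of sex determination and dosage compensation. With a peak at 3.11% of all X genes, a count of 0 in lists of this length is not a result about them. Of the 6 sex and dosage genes, 5 had weaker candidate regions only, as did 34.7% of all X genes. Those of sdc-1 and sdc-2, whose products belong to the dosage compensation complex, had signals of 77.5 and 72.3, and those of fox-1, ceh-39 and xol-1, which act in counting X chromosomes or in the switch that follows, had 74.9, 63.6 and 66.4.

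The MEX core GCGCAGGG lay within 100 bp of the summit in 11 of the 250 X peaks (4.4%, 2.22 to 7.74%). It did so in 2 of 702 autosomal peaks (0.285%, 0.0345 to 1.03%) and in 12 of 5786 other candidates on X (0.207%, 0.107 to 0.362%). The interval of the X peaks overlapped neither. Among the strongest X regions of replicate 1 the count was 13 of 214 (6.07%), against 3 of 738 on the autosomes, and in replicate 2 it was 13 of 243 (5.35%) against 2 of 709. Of all 19973 promoters, taken as the 200 bp upstream of the gene start, 11 (0.0551%) held the core.

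The core itself is denser on X, with 81 copies or 4.57 per Mb against 233 copies or 2.82 per Mb on the autosomes. Of the X copies, 16 (19.8%) had their centre within 100 bp of an optimal summit, a rule that also takes copies that only partly lie in the 200 bp searched above. Of the autosomal copies, 2 (0.858%) did. Within 100 bp of the weaker candidate summits lay 12 X copies (14.8%) and 29 autosomal copies (12.4%). With the strongest regions of a single replicate the X copies numbered 16 and 17, and the autosomal copies 3 and 2. The association of the core with strong regions was thus seen for copies on X in both replicates and for few of the copies elsewhere.

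The MEX peaks were strong, and none lay in a promoter window of 500 bp upstream. Their signals ran from 127 to 318 with a median of 182, and 5 of them were among the 19 X peaks in the 100 strongest regions of the pooled list. Ranks ran from 15 to 975 in replicate 1 and from 24 to 940 in replicate 2, and 10 of 11 were among the strongest regions of both. By place, 8 were intergenic, 2 were in introns, 1 was in a coding exon (that of pks-1) and 0 were in a promoter window. The peaks at ins-39 and nspc-17 lay 579 and 742 bp upstream of a start. A window of 1000 bp upstream would take them in. The core lay within 50 bp of the summit in 8 of 11, and 4 peaks had 2 copies within 100 bp.

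The peak near xol-1, the switch gene of sex determination, was one of these and lay 4872 bp upstream of the start, with a signal of 255 and ranks of 38 and 60. Its 2 copies have opposite orientations in the sequence printed above. The peak at W02H3.3 had a signal of 287 and ranks of 17 and 42, and the peak at gtr-1 had a signal of 230 and ranks of 53 and 88. The peak in the intron of mom-1 was the exception between replicates, with a signal of 265 and ranks of 975 and 27. The remaining MEX peaks, listed after their values were seen, were near F22H10.2, ins-39, Y41G9A.17, C41A3.2, F20B6.9 and T24D8.6, with signals between 127 and 182. The 11 peaks were spread along X, from 4.55% to 94.1% of its length. A match to the core is a description of the sequence, and binding of the dosage compensation complex was not measured here.

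The motifs CTGCGTCTC, TGATAA, GAGAGAGA and CCAAT had intervals in X peaks that overlapped those in autosomal peaks. All 6 motifs were searched on both strands in 200 bp around the summit, and none of them contains another. CTGCGTCTC was in 7.60% of X peaks, 9.69% of autosomal peaks, 0.847% of other X candidates and 2.34% of promoters, while in the strongest X regions it was in 4.67% in replicate 1 and 7.41% in replicate 2. In the order X peaks, autosomal peaks, other X candidates and promoters, the GATA site TGATAA was in 34%, 35.2%, 17.6% and 22.6%, and GAGAGAGA in 5.60%, 9.54%, 2.52% and 2.73%. CCAAT was in 28.8%, 28.9%, 37.4% and 32.2%. The median GC content of these 200 bp was 44.0% in both X and autosomal peaks, and lower, at 41.5%, in the other X candidates.

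X peaks lay beside tRNA genes more often than autosomal peaks did. A tRNA gene was within 500 bp of 40 X summits (16.0%, 11.7 to 21.1%), against 29 autosomal summits (4.13%, 2.78 to 5.88%) and 2.83% (2.42 to 3.30%) of the other X candidates. X carries 276 of the 612 tRNA genes of the nuclear chromosomes, or 45.1%. Counted per tRNA gene, 50 of 276 on X (18.1%, 13.8 to 23.2%) had an optimal summit within 500 bp, against 33 of 336 on the autosomes (9.82%, 6.86 to 13.5%) and 13.6% over the genome. In replicate 1 these shares were 21.4% and 12.8%, and in replicate 2 they were 12.7% and 7.74%. The intervals of X and the autosomes did not overlap in the optimal list, and they overlapped in each replicate alone. Weaker candidate summits lay within 500 bp of 67.0% of X tRNA genes and 65.8% of autosomal ones.

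Of the 40 X peaks, 21 had their summit inside a tRNA gene and 39 within 100 bp of one. They had a median signal of 135, against 140 for the other 210 X peaks. Their median rank was 509 in replicate 1 and 670.5 in replicate 2, while the other X peaks had 686 and 461.5, so the order of the replicates was turned. The B box GGTTCGA was within 100 bp of the summit in 28 of the 40 and in 4 of the other 210. Over all X peaks it was in 12.8%, against 4.42% of autosomal peaks, 2.97% of other X candidates and 0.846% of promoters. Many tRNA genes are near-identical copies, so here too which copy carried the signal is uncertain.

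The strongest peak beside a tRNA gene was the one in him-4, 36 bp from F15G9.t1, with ranks of 36 and 57. The MEX peak near xol-1 lay 244 bp from C18A11.t2. The peak in F41D9.t3, within the anion transporter gene sulp-3, had a signal of 200 and ranks of 262 and 95, and the peak 47 bp from M02F4.t1 had 198 and ranks of 25 and 423. By place, 14 of the 40 summits were in introns, 11 in non-coding genes, 11 intergenic and 4 in promoter windows.

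**Figure D5:**
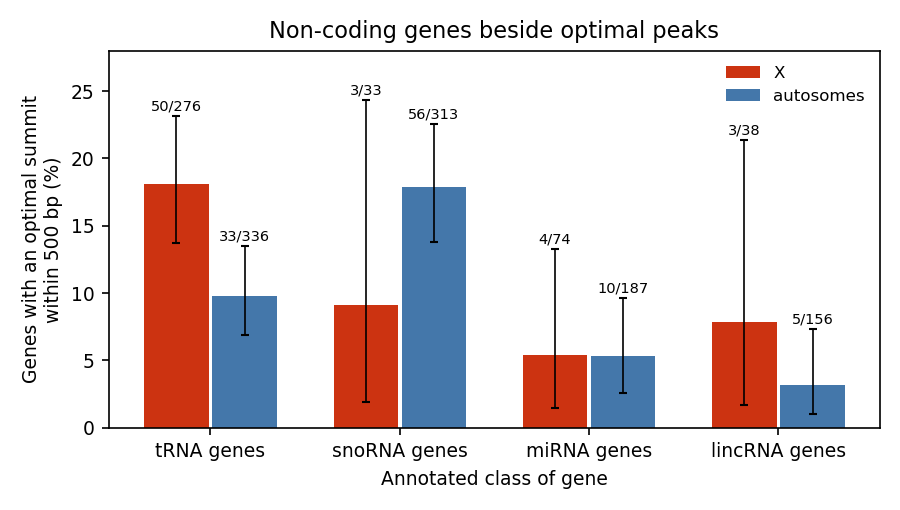
Share of annotated genes of 4 non-coding classes with an optimal summit within 500 bp (vertical axis, percent), for X and the autosomes, with exact 95% intervals and counts above. The tRNA genes stand at 18.1% on X and 9.82% on the autosomes, and the intervals of the other classes overlap.

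Other small RNA genes were beside fewer of the X peaks. A snoRNA gene was within 500 bp of 3 X summits (1.2%, 0.248 to 3.47%), against 55 of 702 autosomal summits (7.83%, 5.96 to 10.1%). X has 33 snoRNA genes, of which 3 had a peak (9.09%, 1.92 to 24.3%), and the autosomes have 313, of which 56 did (17.9%, 13.8 to 22.6%). These last intervals overlap, so a difference per snoRNA gene was not detectable with 33 genes. The 3 were D2021.6, beside the promoter of sdha-1, C53B7.8 and W01H2.11, with signals of 185, 157 and 117. A piRNA gene was within 500 bp of 5 X summits (2%, 0.653 to 4.61%), against 25 autosomal summits (3.56%, 2.32 to 5.21%). None of the 3 snRNA genes of X had a peak. Of 74 miRNA genes on X, 4 (5.41%) had a peak within 500 bp, against 10 of 187 (5.35%) on the autosomes. The 4 shared 2 summits, which lay 206 bp from cel-mir-54 and 492 bp from cel-mir-237, with signals of 139 and 136. Of 38 lincRNA genes, 3 had one (7.89%), namely linc-54, linc-78 and linc-100, against 5 of 156 (3.21%) on the autosomes, and the X count was 1 with the strongest regions of replicate 1.

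The density of X peaks was also counted without these classes, a count chosen after the data were seen. Without the 40 peaks beside tRNA genes it was 11.9 per Mb on X and 8.15 per Mb on the autosomes together. Without peaks that had a MEX core it was 13.5 and 8.48 per Mb. Without either it was 11.3 per Mb on X, against 8.13 per Mb on the autosomes together and 9.75 per Mb on the densest of them. In replicate 1 the densities without either were 8.86 per Mb on X and 8.44 on the autosomes, and in replicate 2 they were 11.5 and 8.30. The excess over the autosomes together was therefore small in replicate 1 once both classes were set aside, and larger in replicate 2. Single autosomes were not recounted this way in a replicate. With all regions kept, chromosomes III and II had 10.5 and 10.3 per Mb in replicate 1, so X need not be the densest there without these classes.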

How the data were processed

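The authors deposited region lists on ce11: 30000 candidate regions per replicate and for the pooled reads, and 952 optimal peaks kept after comparison of replicates (IDR). Per the deposited descriptions, all lists share 1 control file. Caller, aligner and IDR threshold: not given in the sources used here. Regions of a list were ranked by its deposited signal value, which is the authors' own. The deposited q-value is given as -log10 q, and a further deposited column gives the offset of the summit. Taking the 952 pooled regions of highest signal gave exactly the optimal list. Read depth is unknown.

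Summits were placed on the Ensembl release 115 annotation of WBcel235, with promoter windows taken first, then UTRs and coding exons, then introns, then non-coding genes, and the rest called intergenic. A gene was named by the nearest protein-coding transcript start. Lists were matched by summits within 100 bp. "Other candidates" overlap no optimal peak. Regions are not replicates, so shares carry exact Clopper-Pearson 95% intervals (scipy 1.17.1, Python 3.11.15) and values for each replicate, and no p-value. The labels call the replicates biological. The location classes, the genes of promoter windows, the matching of summits and the overlap of regions were tested on simulated data. The other steps, among them the motif search and the distances to non-coding genes, were not.

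The members, gene lists, motifs and tests were chosen with earlier results of these data known. Named were the 20 strongest X peaks, the 3 strongest per class, the 5 with the largest difference in rank, those at the edge of the list, up to 6 per gene list, the extreme bins and gaps, up to 4 per non-coding class, and clusters. All MEX peaks were named after their values were seen. Alternatives were the upper 50% of the peaks by signal, other windows, distances and matching rules, and each replicate alone.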

Additional observations from a re-analysis of the deposited data

How the results depend on the processing

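Of 46 alternatives over 10 results, 32 stayed within the interval of the main value (for the gene count, within 1.5 times of it) and 14 did not. No paired analysis was possible because there was 1 group. With 1 replicate left out, its place taken by the strongest regions of the other, the density on X ranged from 12.1 to 13.7 per Mb, the promoter share from 24.8 to 33.3% and the share beside tRNA genes from 11.9 to 21.5%. The share matched in both replicates has no value then. Replicate 1 alone gave the lower density and promoter share and the higher tRNA share, and the cause was not tested. With the upper 50% of the optimal list by signal the density was 7.39 per Mb and the gene count 43, from a list of fewer peaks by construction, and the share matched in both replicates was 74.8%. The wider window, 1000 bp upstream, gave 42.0% promoter and 27.2% intergenic peaks. The narrower window, 250 bp upstream to 100 bp downstream, gave 20.8% and 41.6%, with 52 genes. Matching within 50 bp gave 33.2% in both replicates. A narrower middle of X, 1/3 of its length in place of 50%, held 33.6%. Without peaks beside tRNA genes the density was 11.9 per Mb. The shares in coding exons and introns and the share with a MEX core stayed within the interval in each alternative run. Depth is unknown, so the lists cannot show whether weaker X sites were missed.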
